A study of Mus musculus with 2 samples.

Results

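The aminoacyl-tRNA synthetases, the scaffold proteins that hold several of them in a complex, and genes of the ATF4 amino acid response were measured by RNA-seq in TUBO cells. The members were the 49 gene symbols of a fixed list, each matched by name to 1 row of a count table of 31017 genes. All 49 were found under their listed names. They comprise 19 cytosolic synthetase genes, 14 mitochondrial synthetase genes, the scaffold genes Aimp1 and Aimp2, the stress regulators Atf4, Atf3, Ddit3 and Trib3, the stress effectors Chac1, Sesn2 and Asns, and 7 genes of serine synthesis and one-carbon metabolism.

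TUBO is a mouse mammary cancer line that arose in a BALB/c mouse with a rat Her2/neu transgene. The cells carried no treatment and grew as flat cultures on plastic in DMEM/F12 with serum and added L-glutamine. The labels give 1 group with 2 libraries, so levels are described and no condition is set against another. Total counts were 35453278 in replicate 1 and 34098259 in replicate 2. Whether separate cultures were harvested for them is not stated, so the spread between them may be technical. All 6 mammary epithelial markers looked at (Krt8, Krt18, Epcam, Cdh1, Erbb2 and Elf5) were detected, with sums of 4577 and 4492 CPM (the count scaled by library size with TMM factors). These sums include Erbb2, and whether reads of the rat transgene were counted there is not stated. None of 4 fibroblast, 4 leukocyte and 3 endothelial markers was detected, with sums of at most 1.04 CPM in either library, and 8 of these 11 had no count.

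Aminoacyl-tRNA synthetases join each amino acid to its tRNA, with separate nuclear genes for most of the cytosolic and mitochondrial enzymes. When amino acids run short or proteins misfold, kinases phosphorylate the translation factor eIF2. General translation then slows, while translation of ATF4 increases. ATF4 is a bZIP transcription factor that activates genes of amino acid synthesis, uptake and tRNA charging, often through C/EBP-ATF response elements (CARE) in their promoters. Because ATF4 is controlled largely at translation, the level of its mRNA is not a measure of its activity.

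The CARE core, TGATGNAA (N is any base; its reverse complement is TTNCATCA), was searched on both strands of promoter windows from RefSeq (GRCm38.p6), each with 250 bases before and 50 bases after an annotated start. Windows were given for 41 members and were not used here for Lars, Rars, Cars, Hars, Nars, Vars, Wars and Hars2. Of these 41 members 9 held the core (22.0%), against 4.51% of the 27025 genes with a window and 2.62% of the 8997 detected genes whose symbol matched. The list was drawn up to hold genes of the ATF4 response, so a higher share may be partly built into the choice. The difference in shares was not tested. The 3 longer stretches below show the core upstream of Asns, Chac1 and Atf3, read 5′ to 3′ on the gene strand, with the core in capitals. Asns makes asparagine, Chac1 degrades glutathione and Atf3 is a stress-induced bZIP factor.
Asns (chr6:7693210-7693329, minus strand): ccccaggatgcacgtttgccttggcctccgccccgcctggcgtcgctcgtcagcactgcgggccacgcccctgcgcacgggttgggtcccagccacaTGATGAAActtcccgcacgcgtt
Chac1 (chr2:119350992-119351111, plus strand): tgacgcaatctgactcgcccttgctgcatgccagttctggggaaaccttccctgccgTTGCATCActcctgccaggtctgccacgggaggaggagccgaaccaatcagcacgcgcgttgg
Atf3 (chr1:191183384-191183503, minus strand): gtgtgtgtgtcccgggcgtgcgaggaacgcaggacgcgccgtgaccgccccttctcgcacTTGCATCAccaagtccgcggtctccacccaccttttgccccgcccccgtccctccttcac

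The synthetase genes with the core were all cytosolic. The core was found in 5 of 12 cytosolic synthetase genes with a window and in 0 of 13 mitochondrial ones. The stretches of 30 bases below, written the same way, show the core in Aars, where 1 of its 2 matches is printed, in Gars, Tars, Yars and Iars, and in Trib3, the gene of a pseudokinase that restrains ATF4 and AKT.
Aars, downstream match (chr8:111033840-111033869, plus strand): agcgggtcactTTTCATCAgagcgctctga
Gars (chr6:55037960-55037989, plus strand): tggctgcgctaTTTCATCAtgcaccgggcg
Tars (chr15:11399655-11399684, minus strand): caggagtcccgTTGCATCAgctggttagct
Yars (chr4:129189895-129189924, plus strand): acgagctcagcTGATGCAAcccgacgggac
Iars (chr13:49682126-49682155, plus strand): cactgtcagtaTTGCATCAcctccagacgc
Trib3 (chr2:152344028-152344057, minus strand): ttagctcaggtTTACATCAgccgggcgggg

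On the strand that reads TGATGNAA, 6 genes held TGATGCAA (Aars, Tars, Yars, Iars, Atf3 and Chac1), which occurred in 1.03% of all genes with a window. Asns, Gars and the downstream match of Aars read TGATGAAA, and Trib3 read TGATGTAA. Counted from the annotated start, the matches of Gars, Tars and Asns began 30, 15 and 23 bases upstream, and those of Atf3 and Chac1 began 110 and 193 bases upstream. The match of Yars began at base 4, that of Iars at base 8 and that of Trib3 at base 15 of the annotated transcript. No member of the serine synthesis and one-carbon group held the core in this window, nor did Atf4, Ddit3, Sesn2, Aimp1 or Aimp2. A match describes the letters in the window, and binding was not measured.

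**Figure D1:**
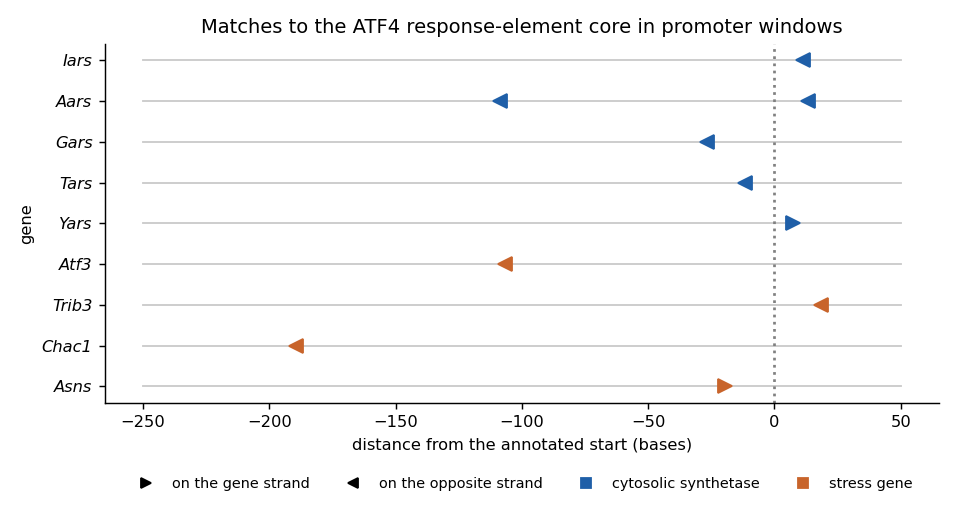
Position of each match to the CARE core (triangles) along the promoter window of the 9 members that held it (grey lines, from 250 bases before to 50 bases after the annotated start, in bases). Triangles point right on the gene strand and left on the opposite strand; blue marks cytosolic synthetase genes and orange marks stress genes. Aars has 2 matches and the other 8 genes have 1 each.

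All 49 members were detected, that is at 1 CPM or more in both libraries, against 37.7% of all genes in the table. Members ranged from 8.03 CPM for Nars2 to 339 CPM for Psat1 in mean level, and 19 of 49 reached 100 CPM in both libraries, against 19.8% of the 11692 detected genes. To compare genes, CPM was divided by the merged exon length of each gene in kb. On this scale the median member stood at 18.4 CPM per kb, against 7.49 CPM per kb for 11601 detected genes with a length, and 34 of 49 members lay above that median. In a bulk sample a lower level cannot be told apart as fewer expressing cells or less RNA per cell.

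**Figure D2:**
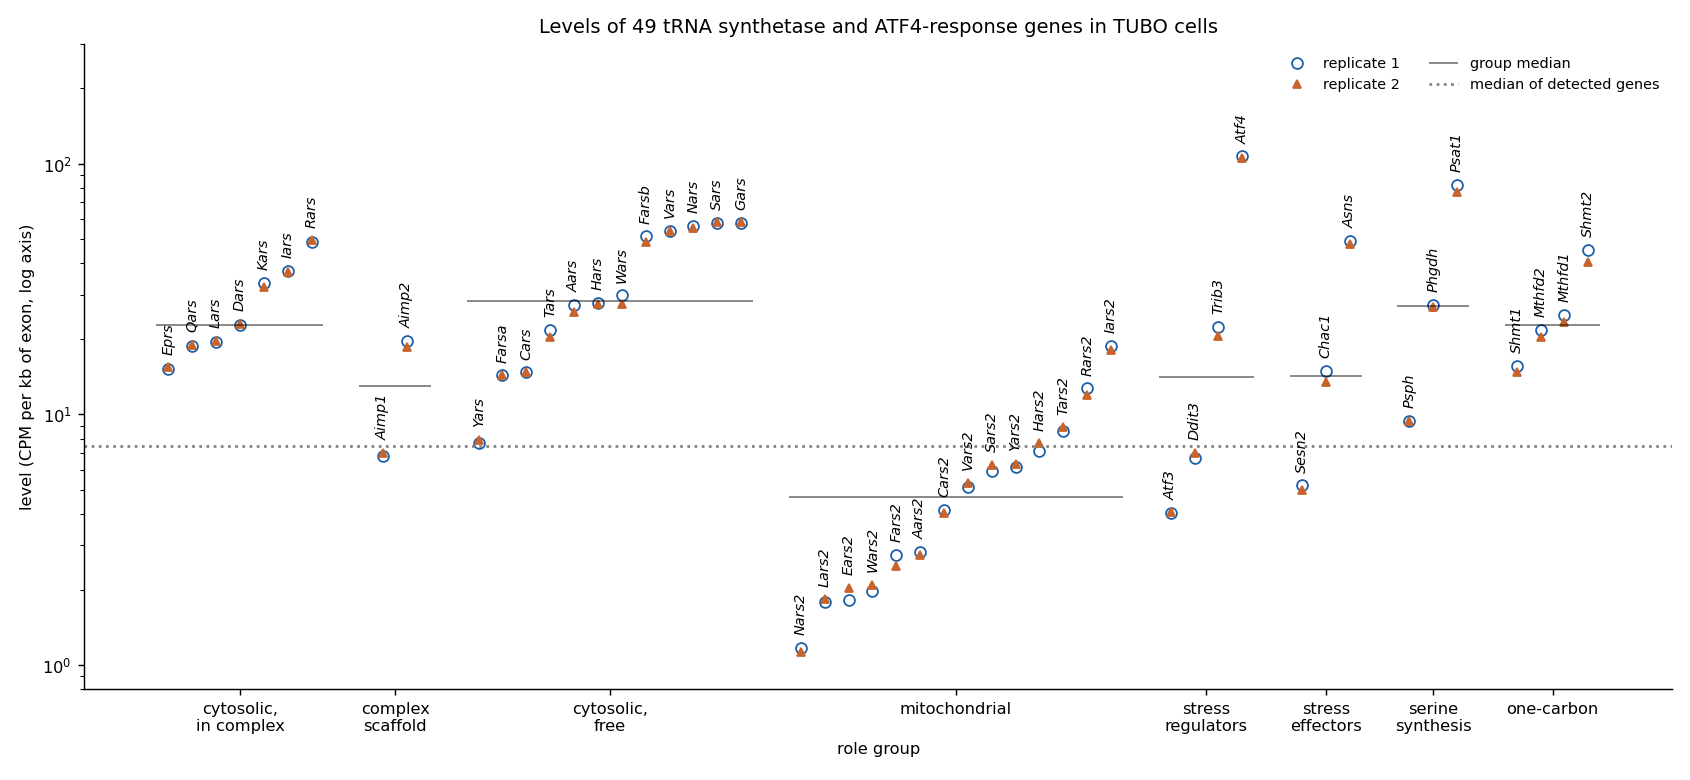
Level of each member in both libraries (y axis, CPM per kb of exon, log scale) by role group (x axis), with circles for replicate 1 and triangles for replicate 2. Solid lines are group medians and the dotted line is the median of detected genes (7.49 CPM per kb). The 14 mitochondrial synthetase genes have the lowest group median (4.68 CPM per kb), and Atf4 is the highest member.

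The cytosolic synthetase genes were abundant. All 19 lay above the median of detected genes per kb, with a group median of 27.7 CPM per kb. The list placed 7 members in the multi-synthetase complex. They were Rars (48.8 and 49.4 CPM per kb in replicates 1 and 2), Iars (37.3 and 37.0), Kars (33.4 and 32.1), Dars (22.8 and 22.9), Lars (19.4 and 19.6), Qars (18.8 and 18.9) and Eprs (15.1 and 15.4). These charge arginine, isoleucine, lysine, aspartate, leucine, glutamine and, for the bifunctional Eprs, glutamate and proline. The place of Eprs rests on the length used. Its merged exons span 18102 bases and its principal coding transcript 4906 bases, and by the length of that transcript it stood at 56.3 CPM per kb, behind Rars (75.2) and Kars (66.8) and above the other 4.

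The scaffold genes of the complex followed. Aimp2 had 19.6 and 18.6 CPM per kb and Aimp1 6.80 and 7.01 CPM per kb in replicates 1 and 2. Of the exonic bases of Aimp2, 29.4% lie under exons of Eif2ak1 on the opposite strand, and whether counting used strand is not stated. By principal transcript length Aimp1 stood at 34.3 CPM per kb and Aimp2 at 26.7 CPM per kb, so their order turns with the length used.

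Among the 12 cytosolic synthetase genes outside the complex, the glycine enzyme gene Gars had 58.2 and 58.3 CPM per kb in replicates 1 and 2. The serine enzyme gene Sars had 58.1 and 58.3, the asparagine enzyme gene Nars 56.5 and 55.1, and the valine enzyme gene Vars 53.9 and 54.0. These 4 stood closely together, between percentiles 94.0 and 94.5 of detected genes. The lowest 3 were the tyrosine enzyme gene Yars (7.71 and 7.89 CPM per kb), Farsa (14.3 and 14.3), which encodes the alpha subunit of the phenylalanine enzyme, and the cysteine enzyme gene Cars (14.7 and 14.7). Farsb, the gene of the beta subunit, stood at 49.9 ± 1.91 CPM per kb (SD, n = 2). It exceeded Farsa 3.49 ± 0.121-fold, and 1.81 ± 0.0625-fold by principal transcript length. The other 4 genes (Aars, Hars, Tars and Wars) lay between 21.0 and 28.7 CPM per kb in mean level. By principal transcript length the lowest 3 were Yars (15.9 CPM per kb), Cars (30) and Tars (31), and Farsa stood at 35.5 CPM per kb.

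The order of the complex and free cytosolic genes depended on the length used. It holds for the listed members only. Mars, the methionine enzyme gene (33.5 CPM per kb), was not a member and entered neither group. How the difference would move with Mars in the complex group was not tested. The median log2(CPM per kb + 0.1) of the complex genes minus that of the free genes was -0.30 ± 0.046 (SD, n = 2). The sign turned to 0.20 without division by length and to 0.25 with the longest transcript, and the difference was -0.07 with the principal transcript. The SD given is the spread between the libraries and not the spread among the genes of each group.

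Mitochondrial synthetase genes were lower than cytosolic ones. Their group median was 4.68 CPM per kb, and 3 of 14 lay above the median of detected genes. The highest were Iars2 (18.8 and 18.1 CPM per kb in replicates 1 and 2), Rars2 (12.7 and 11.9), Tars2 (8.54 and 8.87) and Hars2 (7.16 and 7.65). The lowest were Nars2 (1.17 and 1.13), Lars2 (1.79 and 1.83) and Ears2 (1.82 and 2.03). The other 7 (Aars2, Cars2, Fars2, Sars2, Vars2, Wars2 and Yars2) lay between 2.03 and 6.24 CPM per kb in mean level. This order depended on the length used. By principal transcript length the highest were Iars2 (29.9 CPM per kb), Tars2 (25.1), Rars2 (18.3) and Cars2 (15.6). On that scale the lowest were Nars2 (2.13), Wars2 (2.74) and Aars2 (3.97). Of the exonic bases of Iars2, 24.2% lie under exons of 2010103J01Rik and Rab3gap2 on the opposite strand, so part of its level is uncertain.

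The median log2(CPM per kb + 0.1) of the cytosolic genes exceeded that of the mitochondrial genes by 2.55 ± 0.012 (SD, n = 2), a 5.85-fold difference. That SD is the spread between the 2 libraries only. It does not measure the spread among the genes of each group, and the difference was not tested against that spread. The smallest p that an exact two-sided sign test over 2 libraries allows is 0.5, and none is reported. For all 14 amino acids with a gene for each compartment, the cytosolic gene was the higher in both libraries, by more than 2-fold in both libraries for 12, and for 10 by principal transcript length. The median ratio was 6.71.

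The ratio varied widely among amino acids. Among the 14 member pairs, with Farsa for phenylalanine, it was largest for asparagine, where Nars exceeded Nars2 (chr7:96951505-97064758) by 48.4 ± 0.261-fold (SD, n = 2). Tryptophan followed, with Wars 14.1 ± 1.35-fold above Wars2, and leucine, with Lars 10.8 ± 0.0688-fold above Lars2. Outside these pairs, the ratio was 15.5 ± 0.283 for Mars over Mars2, the methionine enzyme genes, and 19.1 ± 0.691 for Farsb over Fars2, both above that of tryptophan. The smallest ratios were those of tyrosine (Yars over Yars2, 1.25 ± 0.00622), isoleucine (Iars over Iars2, 2.02 ± 0.0426) and threonine (Tars over Tars2, 2.42 ± 0.170). By principal transcript length the asparagine ratio was 41.6, the leucine ratio 5.11, the cysteine ratio 1.92 (3.57 by merged exons) and the threonine ratio 1.23. Glycine and lysine have no pair, since Gars and Kars each encode the enzymes of both compartments, and mitochondria charge glutamine tRNA by another route.

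**Figure D3:**
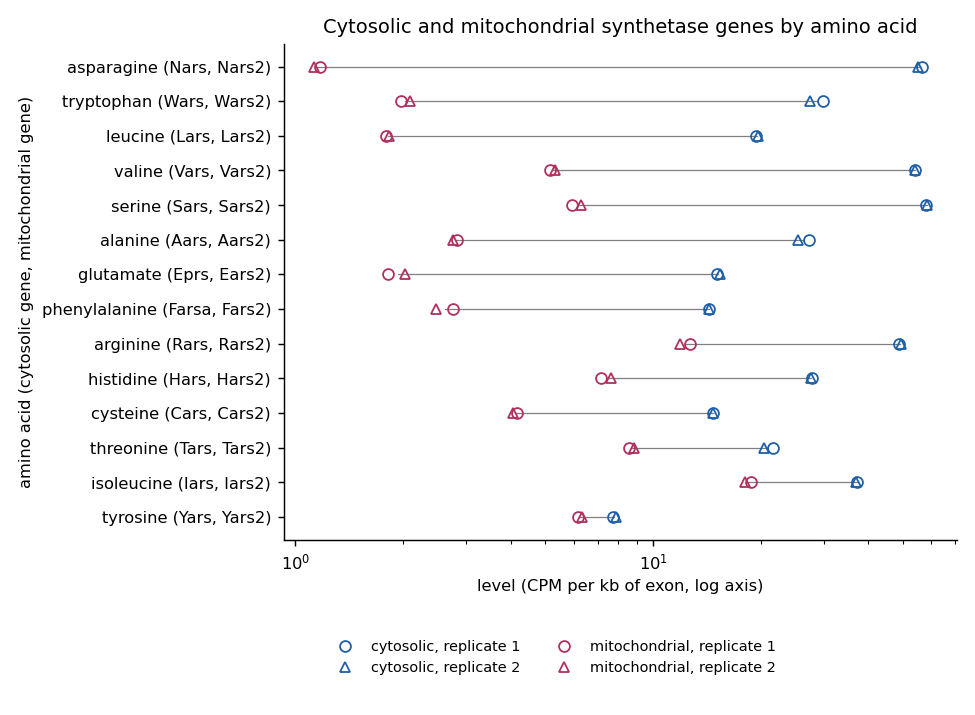
Levels of the cytosolic (blue) and mitochondrial (red) synthetase genes for the 14 amino acids with a gene for each compartment (x axis, CPM per kb of exon, log scale; y axis, amino acid), with circles for replicate 1 and triangles for replicate 2. Rows run by the mean ratio of the libraries, from asparagine (48.4) at the top to tyrosine (1.25) at the bottom, and the blue points lie right of the red ones in every row.

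The levels of the cytosolic synthetase genes followed the amino acid content of the expressed proteins only loosely. Usage was computed from the coding sequences of 10993 detected genes, weighted by their CPM per kb. Across 17 amino acids, leaving out methionine and the 2 amino acids of Eprs, Pearson's r of log2(CPM per kb) with usage was 0.37 and Spearman's rho 0.40. The amino acids share the same libraries and the weights share the same values, so this is a description. Leucine, the most used residue at 9.40%, had Lars at 19.5 CPM per kb. Asparagine, at 3.62%, had Nars at 55.8 CPM per kb, and tryptophan, the least used at 1.06%, had Wars at 28.7 CPM per kb. The relation was 0.61 without leucine and tryptophan, the amino acids farthest from the median usage.

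Atf4 (chr15:80255184-80257541) was the highest member, at 107 and 105 CPM per kb in replicates 1 and 2, above 97.5% of detected genes. The stress-induced genes around it were far lower. The pseudokinase gene Trib3 had 22.3 and 20.5 CPM per kb, the gene of the pro-apoptotic bZIP factor CHOP, Ddit3, had 6.67 and 7.04, and Atf3 had 4.04 and 4.07. Atf3 had 310 and 297 counts, and its level differed little between libraries. Atf4 exceeded Atf3 26.2-fold per kb and 33.0-fold by principal transcript length.

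The stress effectors ranged over 9.52-fold per kb, against 26.2-fold for the stress regulators. The asparagine synthetase gene Asns (chr6:7675169-7693254) had 49.2 and 47.7 CPM per kb, above 93.1% of detected genes. Chac1 had 14.9 and 13.5 CPM per kb. Sesn2, whose product senses leucine for the mTORC1 kinase complex, had 5.20 and 4.98 CPM per kb, below the median of detected genes.

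The 7 members of serine synthesis and one-carbon metabolism were all above the median of detected genes. Psat1 (chr19:15904678-15947337), the aminotransferase of serine synthesis, was the second highest member at 82.4 and 77.1 CPM per kb in replicates 1 and 2. The first enzyme gene of the pathway, Phgdh, had 27.4 and 26.7 CPM per kb, and the last, Psph, had 9.42 and 9.41. Of the 50-base windows of Phgdh transcripts, 47.8% also occur in transcripts of other genes, among them Gm13337 and Gm5207, so the level of Phgdh is uncertain. Shmt2 (chr10:127517123-127522444), which splits serine to glycine in mitochondria, had 45.4 and 40.4 CPM per kb, and its cytosolic counterpart Shmt1 had 15.6 and 14.8. The folate enzyme genes had 24.9 and 23.4 CPM per kb for the cytosolic Mthfd1 and 21.7 and 20.4 for the mitochondrial Mthfd2. For these enzymes the mitochondrial gene was thus above the cytosolic one for serine cleavage (2.82 ± 0.131-fold), and below it for the folate dehydrogenases (0.872 ± 0.00175-fold). By principal transcript length the ratio of Mthfd2 to Mthfd1 was 1.06, the other way round.

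The median log2(CPM per kb + 0.1) of these 7 genes exceeded that of the 4 stress regulators by 0.99 ± 0.048 (SD, n = 2). It exceeded it by 1.66 without division by length and by 0.67 with means in place of medians. The SD is the spread between the 2 libraries only, and the difference was not tested against the spread among genes. The groups overlapped. Atf4 (106 CPM per kb) lay above all 7 genes, and Trib3 (21.4) above Psph (9.41), Shmt1 (15.2) and Mthfd2 (21.1). Ddit3 (6.85) and Atf3 (4.05) lay below all 7.

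The libraries differed little in the members. A two-sided exact binomial test of each gene over the 13336 genes kept by an expression filter, with Benjamini-Hochberg adjustment over all of them, sets 1 library against the other, with counting as its error. It called 4 of 49 members at an adjusted p under 0.05, against 8.13% of all tested genes. All 4 were higher in replicate 1, a direction that held 4.46% of tested genes, and 0 were called higher in replicate 2, against 3.67%. The log2 ratio of replicate 1 to replicate 2 was 0.17 for Shmt2 (141 and 126 CPM, adjusted p = 1.34e-06), 0.10 for Psat1 (351 and 328 CPM, 2.16e-05), 0.10 for Aars (253 and 237 CPM, 0.000584) and 0.12 for Wars (103 and 94.8 CPM, 0.0147). The members' median ratio was 0.01, and that of all tested genes 0.00. With edgeR's exact test, whose dispersion comes from the same libraries (coefficient of variation 3.12%), 0 members were called at an adjusted p under 0.05, against 0.142% of all tested genes. At an unadjusted p under 0.05 it held 1 member, against 5.52% of all tested genes. The binomial test called 7 members with total counts in place of TMM factors, against 9.71% of all tested genes, and 5 with DESeq2 size factors, against 8.62%.

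By group, the 7 serine and one-carbon genes were all higher in replicate 1 (median log2 ratio 0.09), and 6 of 7 with upper-quartile factors. Among them Psph, at 40.8 and 40.7 CPM, had a log2 ratio that rounds to 0.00. The binomial test called only Psat1 and Shmt2 of the 7, and edgeR's exact test called none. Genes of a group share the same 2 libraries and are not replicates, and no group was tested for a shift. The cytosolic synthetase genes had 10 higher and 9 lower in replicate 1 (median 0.00), and the mitochondrial ones 6 higher and 8 lower (median -0.04). Of all tested genes 50.7% were higher in replicate 1.

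**Figure D4:**
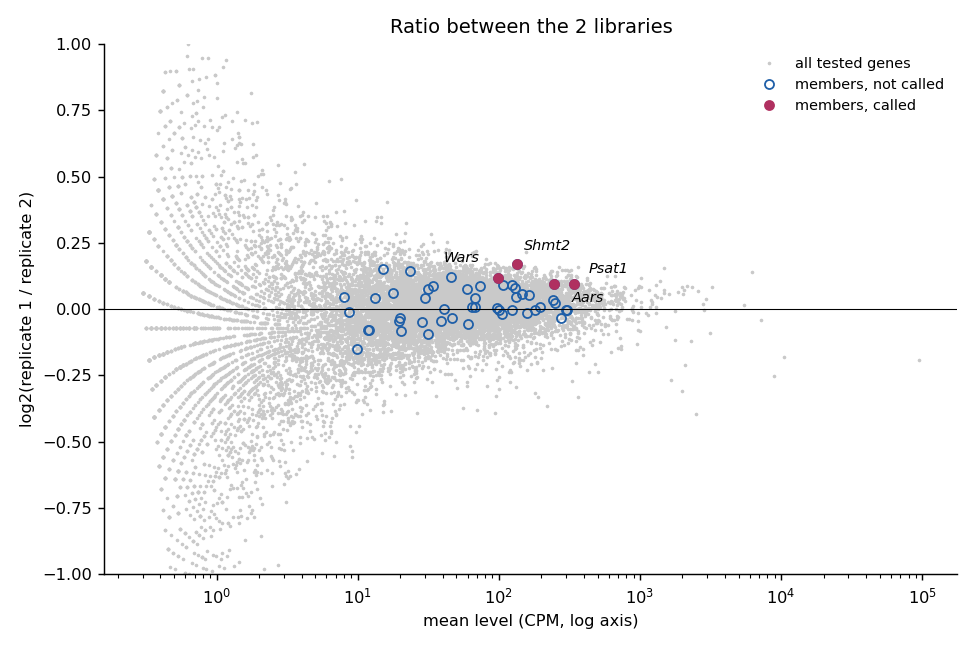
Log2 ratio of replicate 1 to replicate 2 (y axis) against mean level (x axis, CPM, log scale) for 13336 tested genes (grey), with members in blue and the 4 called members filled red. Members lie between -0.15 and 0.17, and 49 tested genes fall outside the plotted range.

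Other genes of the pathway were described from lists chosen with the members. Their calls between libraries are by the binomial test, which called 8.13% of all tested genes. No list was tested against that share. Upstream of ATF4, all 9 genes of the eIF2 kinases, their regulators and the eIF2 phosphatase were detected. The 3 highest were the phosphatase subunit genes Ppp1r15b (44.3 and 44.0 CPM per kb in replicates 1 and 2) and Ppp1cc (22.1 and 24.0), and Gcn1l1 (13.2 and 13.6), whose product activates the kinase GCN2. The lowest were Impact (1.68 and 2.14), which restrains GCN2, and Ppp1r15a (3.41 and 3.32), the stress-induced phosphatase subunit. The test called Impact (log2 ratio -0.34, adjusted p = 0.0314) and Ppp1cc (-0.12, 0.0353), both higher in replicate 2, and no gene of this list higher in replicate 1. With edgeR's exact test none of the 6 genes that the binomial test called in these other lists was called (lowest adjusted p = 0.565). The dispersion of edgeR's test comes from the libraries it compares, so it is not an independent check of the binomial calls. The constitutive Ppp1r15b exceeded the inducible Ppp1r15a 13.1 ± 0.177-fold.

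All 8 genes of eIF2 and its exchange factor eIF2B were detected and none was called. Eif2s3x (49.3 and 47.2 CPM per kb in replicates 1 and 2), Eif2b5 (29.6 and 28.3) and Eif2s1 (28.3 and 27.8) were highest, and Eif2b3 (1.54 and 1.5) and Eif2b4 (11.5 and 11.5) lowest.

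Of 10 genes of ATF4 partners and related bZIP factors 8 were detected. Cebpb, a dimer partner of ATF4, had 218 and 198 CPM per kb in replicates 1 and 2, above 99.0% of detected genes. Atf5 had 50.1 and 45.5, and the oxidative stress factor gene Nfe2l2 had 34 and 33.6. Cebpa (15 and 11 counts) and Batf3 (24 and 20 counts) were lowest and not detected. The test called Cebpb (log2 ratio 0.14, adjusted p = 5.51e-11) and Atf5 (0.14, 0.0027), both higher in replicate 1, and no gene of this list higher in replicate 2.

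Of 18 other known ATF4 targets 13 were detected. The median over all 18 was 8.38 CPM per kb, against 7.49 for detected genes. The amino acid transporter subunit gene Slc3a2 (90.5 and 86.5 CPM per kb in replicates 1 and 2), the mTORC1 inhibitor gene Ddit4 (79.0 and 78.9) and the lipoprotein receptor gene Vldlr (34.7 and 35.6) were highest. Bcat1, the cytosolic branched-chain aminotransferase gene, had no count, which allows up to 0.0842 and 0.0885 CPM, and Cbs had 2 and 1 counts. The other 3 not detected, named after their values were seen, were the secreted stress factors Gdf15 (4 and 6 counts) and Fgf21 (2 and 0 counts) and the cystathionine lyase gene Cth (37 and 23 counts). The test called Slc3a2 higher in replicate 1 (log2 ratio 0.07, adjusted p = 0.0134) and Sesn3 higher in replicate 2 (-0.10, 0.00441).

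Of 12 other one-carbon and glycine genes 9 were detected and none was called. The median over all 12 was 2.91 CPM per kb, against 7.49 for detected genes, and 4 lay above the latter. Mthfd1l (25.6 and 26.8 CPM per kb in replicates 1 and 2), a mitochondrial folate enzyme gene, and the thymidylate synthase gene Tyms (11.6 and 11.4) were highest among those reported. Aldh1l1 (1 and 2 counts) and the glycine decarboxylase gene Gldc (10 and 23 counts) were lowest. Of 11 other synthetase and tRNA charging genes all were detected and none was called. They were led by the methionine enzyme gene Mars (34.4 and 32.7), Gatc (14.0 and 13.2), a subunit gene of the route by which mitochondria make glutamine tRNA, and the scaffold gene Eef1e1 (11 and 11.7). Aarsd1 (0.570 and 0.686) and the mitochondrial proline enzyme gene Pars2 (1.49 and 1.60) were lowest.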

How the data were processed

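Per the labels' protocols, RNA was column-purified, treated with DNase and made into stranded mRNA libraries. The authors deposited unnormalised counts, 1 row per symbol. The submitters' processing notes list STAR 2.7.9a, FastQC 0.11.9, Cell Ranger 3.0.0, R 4.1.1, featureCounts and the build mm10, without saying what each did. No source used here gives the annotation release, the strand setting or how multi-mapped reads were treated, so levels of overlapping or similar genes are uncertain. The members and lists were chosen with earlier results of these data known.

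CPM was computed with TMM factors (edgeR 4.0.16, R 4.3.3) and divided by merged exon lengths from GENCODE M21 (GRCm38), where 98.4% of symbols matched. Overlapping gene IDs of 1 symbol, as for Ddit3, were merged. A count of 0 allows 3 counts, for counting error only. Binomial tests used scipy 1.17.1. They were run on simulated libraries whose counts varied by counting error only (Poisson), the error that the test assumes. That check therefore cannot show whether the calls hold where libraries vary beyond counting. A quasi-likelihood test has no residual degrees of freedom for 1 library against 1. Shared sequence was measured as 50-base windows found in transcripts of other genes. Named genes were all members of groups of up to 7 genes, the 4 highest and 3 lowest of larger ones, the 3 largest and 3 smallest pair ratios, called members, and the 3 highest and 2 lowest of each other list per kb. A gene and a sequence that these rules would name are not reported here. Genes named outside that rule (Farsb, Mars2, Sesn3, Gdf15, Fgf21, Cth) were added after their values were seen. Alternatives covered scaling (DESeq2 1.42.0 size factors among them), length, pseudocount, filters, motif, test and each library left out. The principal transcript length, totals without Gm26917 and Gm42418, and Farsb in place of Farsa were added after the data were seen.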

Additional observations from a re-analysis of the deposited data

How the results depend on the processing

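Detection of all 49 members and the higher cytosolic gene for 14 of 14 amino acids held under every scaling, length and left-out library tried. The cytosolic minus mitochondrial difference of 2.55 was 2.69 without division by length, 2.7 with the longest and 2.47 with the principal transcript, 2.34 and 2.57 with pseudocounts of 1 and 0.01, and 2.66 with means. The serine and one-carbon minus stress regulator difference of 0.99 was 1.66 without division by length, 1.08 with the longest transcript, 0.92 with a pseudocount of 1 and 0.67 with means. The complex minus free difference of -0.30 turned to 0.20 without division by length and 0.25 with the longest transcript, and was -0.07 with the principal transcript and -0.17 with means. Leaving out each library gave 2.54 to 2.56, 0.95 to 1.02 and -0.33 to -0.27. The 4 members called between libraries (8.13% of all tested genes) became 7 with total counts (9.71%), 5 with DESeq2 size factors (8.62%) and 0 with edgeR's exact test (0.142%), whose dispersion widens the error. The 9 members with the CARE core became 6 with TGATGCAA (14.6%), 9 with TGATGNNA (22.0%) and 6 with upstream bases alone (14.6%). In that order, the shares of all genes with a window were 1.03%, 16.4% and 3.91%. Those of detected genes were 0.7%, 9.4% and 2.31%. The correlation with amino acid usage of 0.37 was 0.35 with unweighted usage, 0.61 without leucine and tryptophan, 0.54 with CPM, 0.27 with the principal transcript, 0.29 with Farsb, and 0.36 to 0.38 with either library left out. Without Gm26917 and Gm42418 in the totals the levels of all 49 members rose by more than their SD. No paired analysis was possible because the labels give 1 group. Only 2 libraries give the spread, and whether it is between cultures is not stated.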

Other observations

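Some members lie beside each other in the genome. Hars and Hars2, the cytosolic and mitochondrial histidine enzyme genes, are neighbours on chromosome 18 on opposite strands, and 7.97% of the exonic bases of Hars lie under exons of Hars2. Their levels differed 3.74 ± 0.190-fold (Hars over Hars2, SD, n = 2), in CPM per kb. Ddit3 overlaps Mars and Gm4189 on the opposite strand over 4.73% of its exonic bases, and Mars stood at 33.5 CPM per kb, against 6.85 CPM per kb for Ddit3. In Aars, 14.3% of the exonic bases are shared with Exosc6 on the same strand.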
